A study of Mus musculus with 2 samples.

Results

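Liver sinusoidal endothelial cells were followed through 10 of their marker genes, Stab1, Stab2, Lyve1, Clec4g, Oit3, Gpr182, Fcgr2b, Kdr, Pecam1 and Dnase1l3. The members were picked by name as genes of this cell type, with earlier results of these data known. Each was found on the array through the RefSeq transcript identifier of its probes. All 10 had a probe, 11 probes in 29 spots of the 43020 gene spots, and all 10 were well above background in both samples, as were 14285 of the 20648 named genes on the array. Liver RNA was compared between male mice that had received either a control adenovirus (Ad-Ctrl) or an adenovirus for overexpression of the microRNA miR-378 (Ad-378). Each mouse received 1e9 plaque forming units by tail vein at 8 weeks of age, and no strain or genotype is named in the labels. For either group, 5 livers were pooled and the pool was hybridised to 1 Agilent 1-colour array. Livers were taken 2 weeks after injection according to the protocol, whereas the description of the Ad-378 sample gives 3 weeks, and virus and any such difference in time cannot be told apart. The title of the study is concerned with thyroid hormone, miR-378 and hepatic bile acid synthesis.

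Sinusoidal endothelial cells line the capillaries of the liver. They have open pores and little basement membrane, and they remove hyaluronan, immune complexes, collagen fragments and modified proteins from blood through scavenger receptors. Stab1, Stab2 and Lyve1 encode receptors of this kind, Fcgr2b an inhibitory Fc receptor that takes up immune complexes, and Clec4g a C-type lectin. Kdr encodes the main signalling receptor for vascular endothelial growth factor (VEGF), Gpr182 an atypical chemokine receptor and Pecam1 the junctional adhesion molecule CD31. Oit3 and Dnase1l3 encode secreted proteins, the latter a nuclease that digests chromatin in plasma. Several of these genes are also used outside the sinusoid, Stab1 and Fcgr2b in macrophages, Fcgr2b in B cells, Pecam1 in leukocytes and platelets, and Lyve1 in lymphatic vessels and some macrophages.

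Of the 10 genes, 9 were lower in the Ad-378 pool and 1, Kdr, was higher. Of all 14285 genes measured, 46.1% were lower. The median log2 difference (Ad-378 minus Ad-Ctrl) of the 10 genes was -0.20, against 0.04 for all genes measured. The differences were small. None of the 10 reached 2-fold, a size met by 7.35% of all genes, and Lyve1 alone was 1.5-fold lower, as were 12.0% of all genes. A single array stands for each group, so the differences lack any replicate check and were not tested. In whole liver, fewer endothelial cells and less RNA per endothelial cell cannot be told apart.

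Signals are intensities after the background subtraction of the scanner software. A scaled level is log2 of this signal minus the 75th percentile of all probes on the array, which was 800 for Ad-Ctrl and 695 for the Ad-378 array. Every difference was computed from scaled levels, which sets it 0.20 above that of the unscaled signals. Before scaling, too, 9 of the 10 signals were lower in Ad-378. The scanner error, from the deposited error of each spot, was 0.20 on the log2 scale for every one of the 10 genes and covers measurement on the array only. Its median over all genes was also 0.20, and it was not reduced where several spots of a probe were averaged. Of the 10 differences, 4 were smaller than this error, and 1, that of Lyve1, was more than 2 times as large as this error. Among the 7346 genes whose mean scaled level lay within the range of the 10 genes, 45.4% were lower in Ad-378, the median difference was 0.04 and 4.78% were 2-fold apart.

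**Figure D1:**
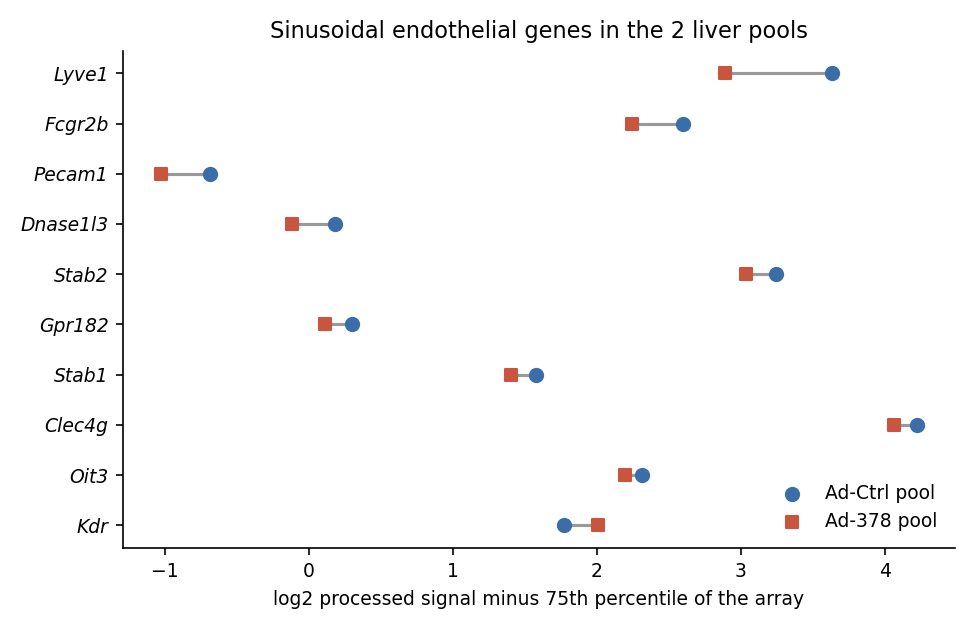
Scaled log2 signal (x axis, log2 units relative to the 75th percentile) of the 10 genes in the Ad-Ctrl pool (circles) and the Ad-378 pool (squares), 1 array each. The square lies left of the circle for all genes but Kdr, and the gap is widest for Lyve1, from 3.63 to 2.89.

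Promoter sequence from RefSeq (build GRCm38.p6) was at hand for 5 of the 10 genes. It is shown for Stab1, Stab2 and Clec4g, as scavenging genes with similar small differences, and for Kdr, the gene that lay on the other side of 0. Each window runs 5′ to 3′ on the strand of the gene, the minus strand in all 4 cases, from 250 bases before to 50 after the start, and lies at chr14:31168592-31168891 (Stab1), chr10:87007893-87008192 (Stab2), chr8:3720602-3720901 (Clec4g) and chr5:75978406-75978705 (Kdr). Capitals mark AGGAAG, a short form of the motif of ETS factors, which act in endothelial genes, or its reverse complement.
Stab1: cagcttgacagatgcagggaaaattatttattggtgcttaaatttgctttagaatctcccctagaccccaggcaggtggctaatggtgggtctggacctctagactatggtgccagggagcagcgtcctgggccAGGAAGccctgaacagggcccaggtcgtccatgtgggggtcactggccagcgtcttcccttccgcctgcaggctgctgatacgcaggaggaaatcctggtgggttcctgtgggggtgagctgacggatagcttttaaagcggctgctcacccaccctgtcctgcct
Stab2: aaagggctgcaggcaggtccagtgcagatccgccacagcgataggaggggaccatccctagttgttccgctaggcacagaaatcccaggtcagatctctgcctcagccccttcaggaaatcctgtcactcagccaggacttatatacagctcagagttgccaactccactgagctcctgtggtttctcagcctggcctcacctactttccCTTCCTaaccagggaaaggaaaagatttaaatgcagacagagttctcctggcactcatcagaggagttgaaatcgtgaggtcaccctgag
Clec4g: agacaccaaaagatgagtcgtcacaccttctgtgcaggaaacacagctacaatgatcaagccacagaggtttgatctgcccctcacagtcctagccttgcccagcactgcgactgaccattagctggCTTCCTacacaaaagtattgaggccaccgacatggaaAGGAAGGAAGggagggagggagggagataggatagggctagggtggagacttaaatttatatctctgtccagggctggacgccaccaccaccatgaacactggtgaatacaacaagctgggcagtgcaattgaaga
Kdr: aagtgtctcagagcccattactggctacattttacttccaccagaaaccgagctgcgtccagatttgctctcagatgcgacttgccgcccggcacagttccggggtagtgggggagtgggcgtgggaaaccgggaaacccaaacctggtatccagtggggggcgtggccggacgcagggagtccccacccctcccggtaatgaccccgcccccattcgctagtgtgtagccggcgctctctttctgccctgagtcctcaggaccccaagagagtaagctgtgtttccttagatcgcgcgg

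The letters AGGAAG occurred on either strand in 35.4% of 32851 promoter windows of 300 bases. Stab1 held 1 match, which began at -116 from the start, Stab2 held 1 at -40, and Clec4g held 3, at -123, -86 and -82, the last pair overlapping. The windows of Kdr and Fcgr2b (chr1:170976022-170976321, minus strand) held 0. AGATAA, a short form of the motif of GATA factors, was searched on both strands as well. It occurred in 11.2% of all windows and in 0 of the 5. A match is a run of letters and was not tested as a binding site.

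Among the scavenger receptors, Lyve1, the hyaluronan receptor of sinusoidal and lymphatic endothelium, differed most. Its signal was 9929 in Ad-Ctrl and 5158 in Ad-378. After scaling, the Ad-378 level was 59.8% of that in Ad-Ctrl, a log2 difference of -0.74. Of the 14285 genes, 1183 (8.28%) had a lower difference. The remaining 9 genes had a median of -0.18 without Lyve1, and Lyve1 lay 0.56 log2 units below it, a distance that was not tested.

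Stab1 and Stab2, the paralogous scavenger receptors called stabilins, were close to each other in their differences. The Stab1 signal was 2388 in Ad-Ctrl and 1838 in Ad-378, a log2 difference of -0.17 and 88.6% of the Ad-Ctrl level. The Stab2 signal was 7581 and 5708, a log2 difference of -0.21 and 86.7%. The Stab1 difference was smaller than the scanner error of 0.20 and the Stab2 difference about equal to it. Clec4g, the lectin of the sinusoidal surface, had signals of 14966 (Ad-Ctrl) and 11651 (Ad-378), a log2 difference of -0.16, which was smaller than the scanner error. Lyve1 and Stab2, both hyaluronan receptors, thus did not share a size of difference, Lyve1 being 1.67-fold lower and Stab2 1.15-fold lower in Ad-378.

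Fcgr2b and Kdr were each printed in 10 spots per array, so their measurement on the array can be seen directly. The 10 Fcgr2b spots ran from 4532 to 5069 in Ad-Ctrl with a median of 4849, and from 3178 to 3418 in Ad-378 with a median of 3291. All 10 Ad-378 spots lay below all 10 Ad-Ctrl spots, both in signal and after scaling. The log2 difference of the means was -0.35, and the SD among spots of 1 array was 0.048 (Ad-Ctrl) and 0.037 (Ad-378). These spots share the RNA of their pool, so their spread says nothing of the spread between mice.

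Kdr, the VEGF receptor, was the single gene of the 10 that was higher in Ad-378 after scaling. Of its 10 spots, 1 was marked as an outlier on each array and left out. The other 9 ran from 2575 to 2817 in Ad-Ctrl with a median of 2756, and from 2711 to 3062 in Ad-378 with a median of 2762, so the unscaled signals overlapped. After scaling, all 9 Ad-378 spots lay above all 9 Ad-Ctrl spots, at 1.96 to 2.14 against 1.69 to 1.82, and the log2 difference was 0.24. A second Kdr probe, with signals of 438 and 469, had a log2 difference of 0.30. Both probes were also higher in Ad-378 before scaling, the brighter with a ratio of mean signals of 1.02, so the scaling set the size of the Kdr difference and the separation of its spots but not its sign. The Kdr difference lay 0.59 log2 units above that of Fcgr2b, a distance that was not tested.

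**Figure D2:**
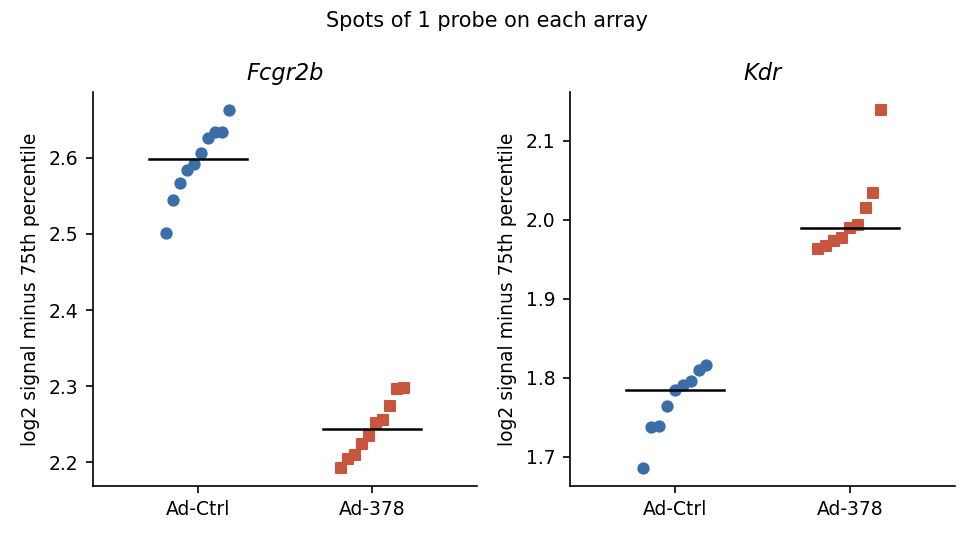
Scaled log2 signal of each spot of the Fcgr2b probe (10 spots per array) and of the brighter Kdr probe (9 spots per array after 1 outlier) on the Ad-Ctrl array (circles) and the Ad-378 array (squares); horizontal lines are medians, spots are sorted by value and the y axes do not start at 0. All Fcgr2b spots are lower and all Kdr spots higher on the Ad-378 array.

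Gpr182 and Pecam1, the other surface proteins, were lower in Ad-378. Gpr182, the chemokine-binding receptor, had signals of 984 (Ad-Ctrl) and 752 (Ad-378), a log2 difference of -0.18 and below the scanner error. Pecam1, the adhesion molecule shared with leukocytes and platelets, had signals of 497 and 341, a log2 difference of -0.34, which left 78.9% of the Ad-Ctrl level. Its raw spot signal of 377 in Ad-378 was the lowest raw signal of the 10 genes at the probes used, against a local background of 30.5.

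Of the secreted products, Dnase1l3, the plasma nuclease, differed more than Oit3. The Dnase1l3 signal was 907 in Ad-Ctrl and 641 in Ad-378, a log2 difference of -0.30 and 81.3% of the Ad-Ctrl level. The Oit3 signal was 3979 and 3187, a log2 difference of -0.12, the smallest of the 9 that were lower. Without Lyve1 and Kdr, the 8 genes left lay between -0.35 and -0.12.

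**Figure D3:**
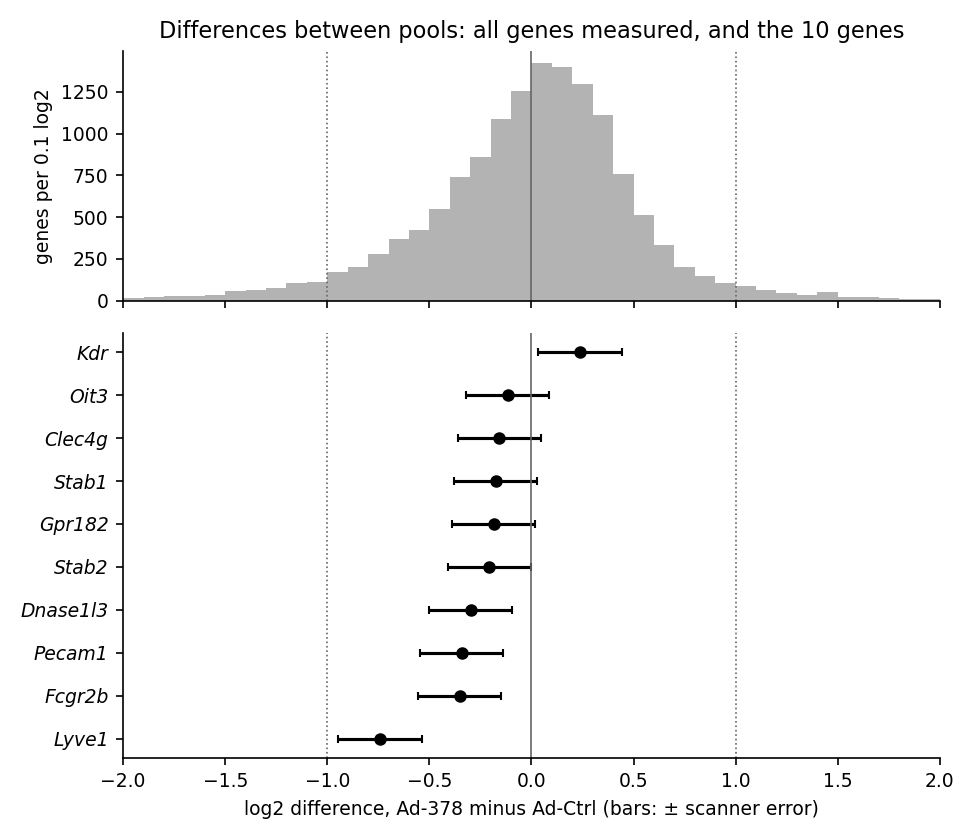
Upper panel, number of genes per 0.1 log2 unit (y axis) at each difference between pools (x axis, cut at -2 and 2) for the 14285 genes measured; lower panel, the 10 genes on the same axis with bars of ± 1 scanner error (0.20). Dotted lines mark 2-fold; the bars of Kdr and Lyve1 lie on opposite sides of 0 and all 10 genes lie inside the dotted lines.

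Other genes of endothelium were read from 7 lists. Pan-endothelial genes gave nearly the same picture, 15 of the 20 measured in both pools being lower, with a median of -0.19 and 0 at 2-fold. The lowest were Cd93 (-0.76), a C-type lectin-like receptor, Ecscr (-0.61) and Tek (-0.59), the angiopoietin receptor. Their summed scaled signal was 30.0 in Ad-Ctrl and 26.3 in Ad-378, and that of the 10 genes 61.0 and 50.9. Further receptors and factors of sinusoidal identity were lower in 13 of 19 cases, with a median of -0.20. Among them Maf (-1.17), a transcription factor of sinusoidal endothelium and of macrophages, and Mrc1 (-0.93), the mannose receptor shared with Kupffer cells, were the lowest, followed by Tfec (-0.78). The summed scaled signal of this list was 171 in Ad-Ctrl and 174 in Ad-378, or 70.8 and 59.6 without its brightest gene. Genes of the VEGF and angiopoietin pathway were split, 9 of 16 being lower, with a median of -0.10. Their summed scaled signal was 12.1 in Ad-Ctrl and 12.9 in Ad-378, or 6.57 and 6.19 without Vegfa, the brightest gene. Angpt1, a ligand of Tek, had -0.86, Vegfb, a ligand of the receptor Flt1, -0.75 and Tek -0.59.

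Angiocrine and Notch genes had a median of -0.25 over 13 genes, 8 of them lower. Hey1, a target of Notch, had -1.35 from dim signals of 242.5 (Ad-Ctrl) and 82.5 (Ad-378). Hgf, a growth factor for hepatocytes that stellate cells also make, had -1.02 from 250.4 and 107.5. Notch1 had 1.48 at its brighter probe and -0.45 at a dimmer one, so its direction depends on the probe. Genes of continuous capillaries and larger vessels were lower in 12 of 15 cases, with a median of -0.39. Fabp4, a fatty acid binding protein of capillaries, had -0.93 and the sialomucin gene Cd34 -0.90, whereas Cav1, the main protein of caveolae, was higher at 2.30 from dim signals of 43.3 (Ad-Ctrl) and 185 (Ad-378). On normexp-corrected values Cav1 had 0.25, or 1.37 with 1 aberrant spot left out of the fit. With that spot left out, Hey1 had -0.79 and Hgf -0.52.

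Endothelial activation genes had a median of -0.47, with 7 of 11 lower, 3 of them at least 2-fold. Vcam1, a leukocyte adhesion molecule that macrophages also carry, had signals of 13590 and 3527 and a difference of -1.74, with -1.57 at its second probe. Plat, tissue plasminogen activator, had -1.84 from dim signals of 134 and 32.5, -1.29 with normexp on all spots and -0.59 without the aberrant spot. F3, tissue factor, was higher at 1.44 and had 1.44 at its second probe. Of the lymphatic list, to which Lyve1 could also point, 2 of 5 were lower and the median was 0.15, or -0.71 with normexp on all spots. Prox1, its defining transcription factor, which hepatocytes also express, had 61.6 and 60.2, and the summed scaled signal was 0.647 and 0.711. The largest difference in that list was Pdpn, podoplanin, at 1.86 from dim signals of 26.7 and 83.8, which had -0.26 with normexp on all spots, 0.92 with normexp without the aberrant spot and 0.93 on the series matrix values.

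**Figure D4:**
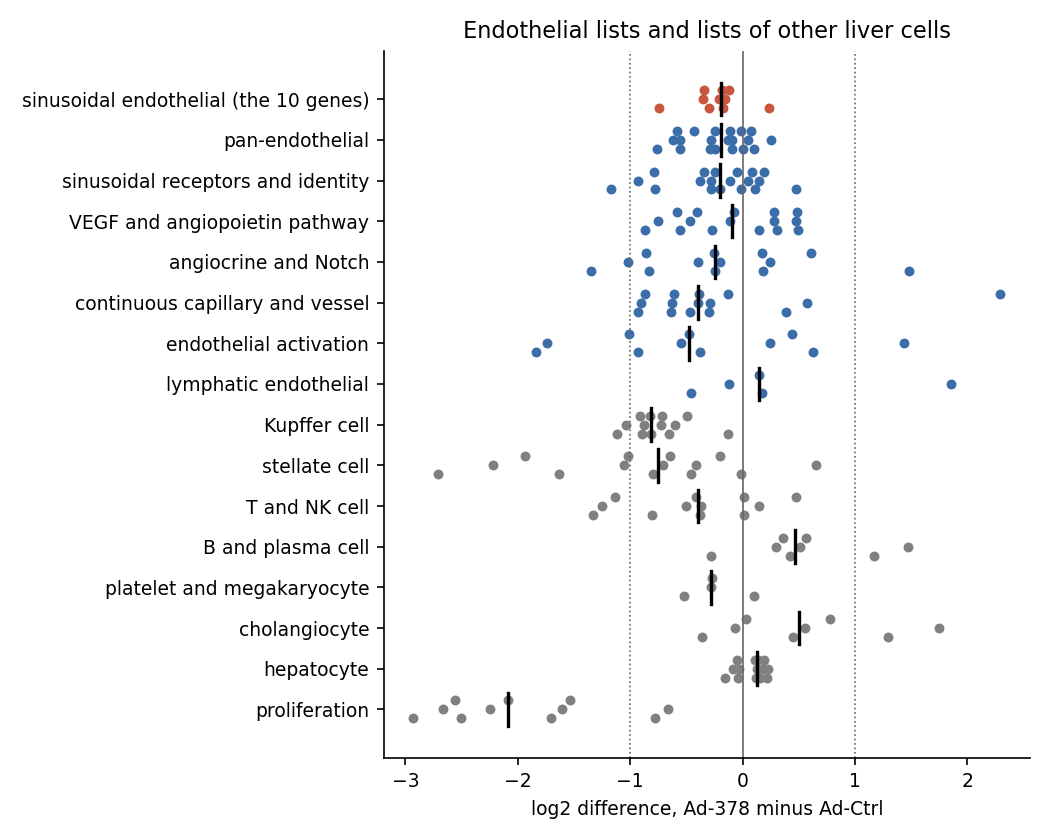
Log2 difference between pools (x axis) of each gene measured in both pools, for the 10 sinusoidal genes (top row), 7 endothelial lists and 8 lists of other cells or processes (grey); black bars are list medians and dotted lines mark 2-fold. The median of the 10 genes, -0.20, lies between those of Kupffer cell genes (-0.81) and hepatocyte genes (0.13).

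Markers of other liver cells also differed between the pools. All 13 measured Kupffer cell markers were lower, with a median of -0.81, led by Cd5l (-1.12), Adgre1 (-1.04) and Marco (-0.91), and their summed scaled signal was 177 in Ad-Ctrl and 99.1 in Ad-378. Of 14 stellate cell markers 13 were lower, with a median of -0.76 and a summed signal of 90.9 and 53.6. The collagen genes Col3a1 (-2.71) and Col1a1 (-2.22) were the lowest. The list was uneven, since Dcn, its brightest gene, had -0.20, Lrat had -0.01 and Ecm1 was higher at 0.65. The median was -0.40 for T and NK cell markers (8 of 12 lower, summed signal 13.1 and 12.9) and -0.28 for platelet markers (3 of 4 lower, 2.94 and 2.26). The median was 0.46 for B and plasma cell markers (1 of 8 lower) and 0.50 for cholangiocyte markers (2 of 8 lower), and with normexp on all spots these medians were -0.35 and -0.53. The summed signal of the B and plasma cell list, 25.9 and 37.1, was mostly that of Xbp1, which hepatocytes also express, and the other 7 genes summed to 0.885 and 1.47. That of the cholangiocyte list, 3.96 and 8.68, was mostly Spp1, osteopontin, and the other 7 genes summed to 1.03 and 1.49. Xbp1 and Spp1 were named after their values were seen. Hepatocyte genes had a median of 0.13 (5 of 14 lower, 1631 and 1752), and Alb, albumin, had 0.19. The hepatocyte median was -0.09 under loess scaling, -0.07 under quantile scaling and 0.36 with normexp on all spots, so its sign depends on the processing. Proliferation genes had a median of -2.09 (11 of 11 lower, 28.6 and 10.1). Markers well above background in neither pool included Cd163 of Kupffer cells, Des of stellate cells, Blk and Cd79a of B cells, Krt7 of cholangiocytes, and Gp1ba, Gp6, Itga2b and Treml1 of platelets. The part of any of these cells in the endothelial values was not tested. Without Fcgr2b, Pecam1 and Stab1, which other blood or immune cells also express, the median of the remaining 7 genes was -0.18. These 7 still held Lyve1, which some macrophages also use, so this median does not set immune cells aside.

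**Figure D5:**
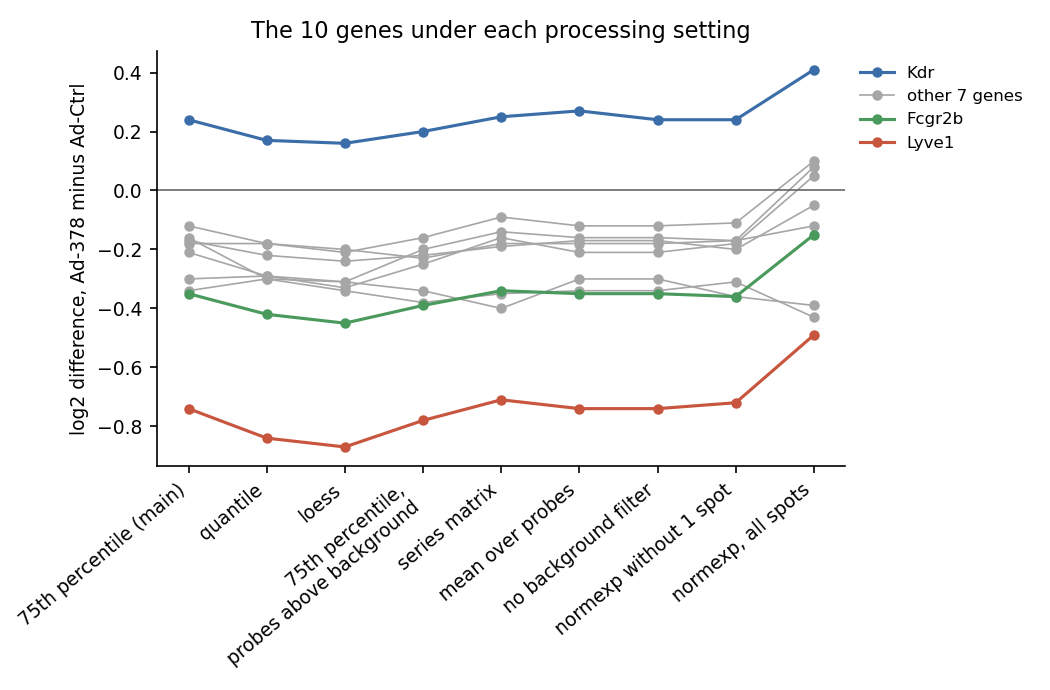
Log2 difference between pools (y axis) of the 10 genes under the main setting and 8 alternatives (x axis, categories without order; lines only join the values of a gene). Kdr is above 0 and Lyve1 lowest at every setting; with normexp on all spots, Stab2, Clec4g and Oit3 lie above 0.

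The order of the genes at both ends did not hinge on the processing. Over 8 alternatives Lyve1 lay between -0.87 and -0.49 and Kdr between 0.16 and 0.41. In 7 of the 8, 9 of the 10 genes were lower in Ad-378. These 7 include dropping the background filter, which could not change the 10 genes, and the mean over probes, which could change only Kdr. With normexp background correction fitted on all spots, 6 were lower, and Stab2 (0.05), Clec4g (0.08) and Oit3 (0.10) lay above 0. That fit was set by 1 spot of the Ad-Ctrl array with a local background of 6305, and without it the 9 genes were lower again.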

How the data were processed

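Each pool was labelled from 0.5 micrograms of RNA and hybridised to 1 Agilent array of 44397 spots, 1377 of them controls. The deposited scanner values are intensities; per the file headers, whose statistics list background subtraction and detrending within the array, they come from Feature Extraction 11.0.1.1, whereas the submitters' processing notes name version 9.1. Other deposited values are flags of 0 or 1 for background, saturation and outliers. The deposited series matrix equals the raw median signal in 100% of values (column medians 103 and 95), so its scale is linear, uncentred and in the direction of the labels. Per the labels' protocol the extraction kit was one for blood RNA with globin removal. Both arrays had 63.1% (Ad-Ctrl) and 65.7% (Ad-378) of gene spots well above background, none saturated.

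Control spots and 123 outlier spots per array were left out, spots of a probe were averaged and log2 signals were scaled to the 75th percentile. A probe was named where its RefSeq identifier matched 1 gene of GRCm38.p6 (27213 of 39401 probes); the headers name another build, mm9, so genes carry no coordinates. Each gene was read at the brightest of its probes that passed the background flag on both arrays; 7 listed symbols had no probe by this match. No test was run. The number of arrays limits the precision. Apart from all 10 members, up to 3 genes per list with the largest differences were named. The VEGF and Tie receptors, their ligands, Dcn, Lrat, Ecm1 and the second probes were named after their values were seen. The members and lists were chosen with earlier results of these data known. Alternatives were quantile and loess (span 0.3) scaling, the percentile over detected probes, normexp (offset 50) on median signals, series matrix values, the mean over probes, no background filter, and thresholds of 1.5-fold and 3-fold; normexp without 1 spot was added after seeing the data. The steps were tested on simulated data. Python 3.11.15, numpy 2.4.6, pandas 2.3.3, statsmodels 0.14.6, R 4.3.3 and limma 3.58.1 were used.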

Additional observations from a re-analysis of the deposited data

How the results depend on the processing

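No paired analysis was possible because replicate 1 is the sole sample of either group. By construction, dropping the background filter could not move the 10 genes, and the mean over probes could move only Kdr. These unmoved values are counted in what follows. Of 80 values of the 10 genes under the alternatives, 77 kept their sign and 5 moved by more than the scanner error, all 5 with normexp on all spots. That setting also moved the median of all genes from 0.04 to -0.15 and gave medians of -0.50 for the VEGF, 0.36 for the hepatocyte, -0.74 for the T and NK cell, -0.35 for the B cell, -0.53 for the cholangiocyte, -0.54 for the platelet, -0.71 for the lymphatic and -1.42 for the proliferation list. Its fitted background in Ad-Ctrl was -175 with all spots and -0.90 without the 1 spot. Without that spot the T and NK cell median was -0.16 and the proliferation median -1.4, which was -1.45 on the series matrix values. The hepatocyte median was -0.09 under loess and -0.07 under quantile scaling. Of the 10 genes, 0 were 2-fold apart under any setting and 1 was at least 1.5-fold apart at the main setting. Genes at least 2-fold apart numbered 1050, against 513 with normexp without 1 spot, 615 on the series matrix values and 2225 with no background filter, where 10310 of 20648 genes were lower; 2977 passed 1.5-fold and 307 passed 3-fold. No-filter counts hold more genes by construction; the cause of the other changes was not tested. Dim genes limit the comparison, since their differences change most with the background step.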

Other observations

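Within the VEGF and angiopoietin pathway the receptors fell on opposite sides of 0, a pattern noticed after the values were seen and not tested. Of all 14285 genes measured, 7701 had a positive difference and 6584 a negative one. All 5 VEGF receptors and co-receptors had positive differences, from 0.15 to 0.49. Flt1, a VEGF receptor that limits signalling through Kdr, had signals of 541 (Ad-Ctrl) and 653 (0.48), Nrp1 166 and 202 (0.49), Nrp2 915 and 985 (0.31), and Flt4, the receptor for VEGF-C, 221 and 212 (0.15), beside 0.24 for Kdr. The second, dim probe of Nrp2 had 1.86. The VEGF ligands were not counted among these 5. Vegfa, the main ligand, had 0.28 at its brighter probe and 0.14 as the mean over its 2 probes. Of the other ligands, Vegfb (-0.75), Vegfc (-0.08) and Vegfd (-0.11) were lower, and the dim Pgf (0.28) was higher. All 4 Tie receptors and angiopoietins had negative differences, from -0.86 to -0.40. The angiopoietins are ligands, so the VEGF and Tie groups were not built alike. Tek had signals of 336 and 195 (-0.59), Tie1 266 and 156 (-0.56), Angpt1 97.4 and 46.5 (-0.86) and Angpt2 168 and 110 (-0.40). Over the 8 alternatives the Tie group kept its sign but not its size. With normexp without 1 spot, Angpt1 had -0.33, Angpt2 -0.12, Tek -0.41 and Tie1 -0.37. Flt4 (-0.19) and Nrp1 (-0.12) were below 0 with normexp on all spots. The Flt4 signal was lower before scaling, so its position above 0 rests on the scaling.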
